A study of Homo sapiens with 6 samples.

Results

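Chamber identity transcription factors are regulators that mark or set whether a heart muscle cell is of the atrial or the ventricular kind. The group described here was chosen by name and has 9 genes, NR2F1, NR2F2, HEY1, HEY2, IRX1, IRX2, IRX3, IRX4 and IRX5. All 9 were found among the 28092 rows of the deposited expression table and all 9 passed the filter on low counts that left 19558 genes to test.

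The samples were 3 ADPRHL1 knockout (KO) and 3 wild-type (WT) preparations of cardiomyocytes made from the human embryonic stem cell line H9, all collected within 3 days of re-seeding for RNA sequencing of polyadenylated transcripts. ADPRHL1 is a heart-enriched gene of the ADP-ribosylhydrolase family. How the knockout was made, and whether it is 1 clone, is not given in the sources used here, and neither is whether replicates were grown apart. The p-values therefore describe the spread among these 6 samples only, and that spread may be technical.

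The factors belong to 3 families. NR2F1 and NR2F2, also called COUP-TFI and COUP-TFII, are orphan nuclear receptors of atrial muscle. In human stem cell cultures they are induced by retinoic acid and act on atrial potassium channel genes. HEY1 and HEY2 are repressors of the basic helix-loop-helix class that Notch signalling switches on, and in the mouse heart HEY1 marks the atria and HEY2 the compact ventricular wall, where HEY2 holds atrial genes down. The IRX genes encode homeodomain proteins that lie in clusters. IRX4 is the classical ventricle-restricted member, and in the mouse IRX3 acts in the ventricular conduction system and IRX5 in the gradient of repolarization across the ventricular wall. None of these genes is limited to muscle. NR2F2 is also a gene of venous and lymphatic endothelium and of mesenchyme, and HEY1 and HEY2 are also arterial endothelial genes.

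Promoter sequences are shown for NR2F1, which had the largest rise of the group, for IRX4, which had the largest fall, and for HEY2, the matched member with a core motif of RBPJ, the DNA-binding partner of Notch. They come from RefSeq on GRCh38.p14, run from 250 bases before to 50 bases after the start of the gene, and are written 5′ to 3′ on the gene's strand. The windows are chr5:93582972-93583271 on the plus strand for NR2F1, chr6:125749382-125749681 on the plus strand for HEY2 and chr5:1887130-1887429 on the minus strand for IRX4. Capitals mark matches to the motifs searched.
NR2F1: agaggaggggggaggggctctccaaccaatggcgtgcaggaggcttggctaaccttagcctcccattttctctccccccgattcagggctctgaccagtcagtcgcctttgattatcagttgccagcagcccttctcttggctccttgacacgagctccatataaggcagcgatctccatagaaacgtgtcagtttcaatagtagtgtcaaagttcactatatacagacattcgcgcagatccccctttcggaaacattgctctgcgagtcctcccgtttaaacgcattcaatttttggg
HEY2: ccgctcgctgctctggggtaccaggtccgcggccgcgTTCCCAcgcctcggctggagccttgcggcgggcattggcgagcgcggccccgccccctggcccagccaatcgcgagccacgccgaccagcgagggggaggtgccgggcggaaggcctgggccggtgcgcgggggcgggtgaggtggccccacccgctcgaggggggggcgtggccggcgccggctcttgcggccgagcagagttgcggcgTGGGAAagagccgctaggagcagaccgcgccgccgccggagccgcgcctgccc
IRX4: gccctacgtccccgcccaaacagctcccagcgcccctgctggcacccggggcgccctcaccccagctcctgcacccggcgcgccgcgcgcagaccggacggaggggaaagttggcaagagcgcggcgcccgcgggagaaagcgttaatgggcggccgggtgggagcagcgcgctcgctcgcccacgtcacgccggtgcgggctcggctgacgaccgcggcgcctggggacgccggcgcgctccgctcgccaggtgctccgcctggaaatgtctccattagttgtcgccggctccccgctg

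Windows were matched for 6 of the 9 genes, and 5 motifs were searched on both strands. HEY1, IRX3 and IRX5 had no window, so whether their promoters hold any of these motifs was not examined. The RBPJ core TGGGAA was found at 2 places in the HEY2 window, beginning 213 bases before the start on the opposite strand and 3 bases before it on the same strand. It was found in none of the other matched windows of members and in 24.0% of all 35116 windows. The E-box CACGTG, a sequence that HEY proteins bind and that reads the same on both strands, was found once in the IRX1 window and at 2 places in a window of NR2F2, against 7.26% of all windows. The nuclear receptor half-site AGGTCA (13.8% of all windows) and the motif AGATAA bound by GATA factors (10.3%) were found in no window of a member. TATAAA (11.5% of all windows) was found in the downstream one of the windows of NR2F1 and in no other. None of the motifs overlapped another. The HEY2 and IRX4 windows were rich in G and C, at 79.0% and 75.0%, against 51.3% in the NR2F1 window and a median of 58.7% over all windows.

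Depth was nearly equal, at 21179650 to 21405718 estimated counts per sample, so 3 counts stood for 0.138 to 0.142 CPM (counts relative to library size, scaled by TMM). ADPRHL1 averaged 6.59 ± 0.907 CPM in KO and 80.9 ± 2.43 CPM in WT (SD, n = 3 each), with no overlap between the labelled genotypes. The 14 cardiomyocyte markers examined all fell, with a median log2 fold change of -1.68, and summed to 6872 to 7237 CPM in KO samples and 21660 to 21860 CPM in WT samples. None was at 0, so transcripts of all 14 markers were detected in both groups. Of 11 fibroblast markers 7 rose and 3 fell, and they summed to 15030 to 17810 CPM in KO samples and 11040 to 11310 CPM in WT samples. Of 8 endothelial markers 6 rose and EMCN fell, with sums of 234 to 269 CPM in KO samples and 182 to 188 CPM in WT samples. Most of that endothelial sum was KDR, at 210 CPM in KO and 170 CPM in WT. Over all genes tested, 28.4% were called higher and 28.6% lower. In bulk RNA, fewer cells of a type and less RNA per cell cannot be told apart. The part of these marker differences in the results below was not tested.

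Of the 9 factors, 4 rose in KO (NR2F1, IRX5, HEY2 and IRX2), 3 fell (IRX4, HEY1 and IRX1), and NR2F2 and IRX3 did not pass, in the quasi-likelihood test of edgeR (adjusted p under 0.05, Benjamini-Hochberg over all 19558 genes). The same test called 57% of all genes, 28.4% higher and 28.6% lower, so 7 called of 9 is not by itself a result about these genes. A rise of 2-fold or more was called for NR2F1, IRX5 and HEY2, 3 of 9, against 10.1% of all genes, and a fall of that size for no member, against 6.02%. The KO and WT samples did not overlap for the same 7 called genes, against 64.5% of all genes tested. The median log2 fold change was 0.022 over the 9 members and 0.0011 over all genes tested. The rises and falls cut across chamber labels, since the risers included the atrial factor NR2F1 and the ventricular factor HEY2, and the fallers the ventricular factor IRX4 and the atrial factor HEY1.

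**Figure D1:**
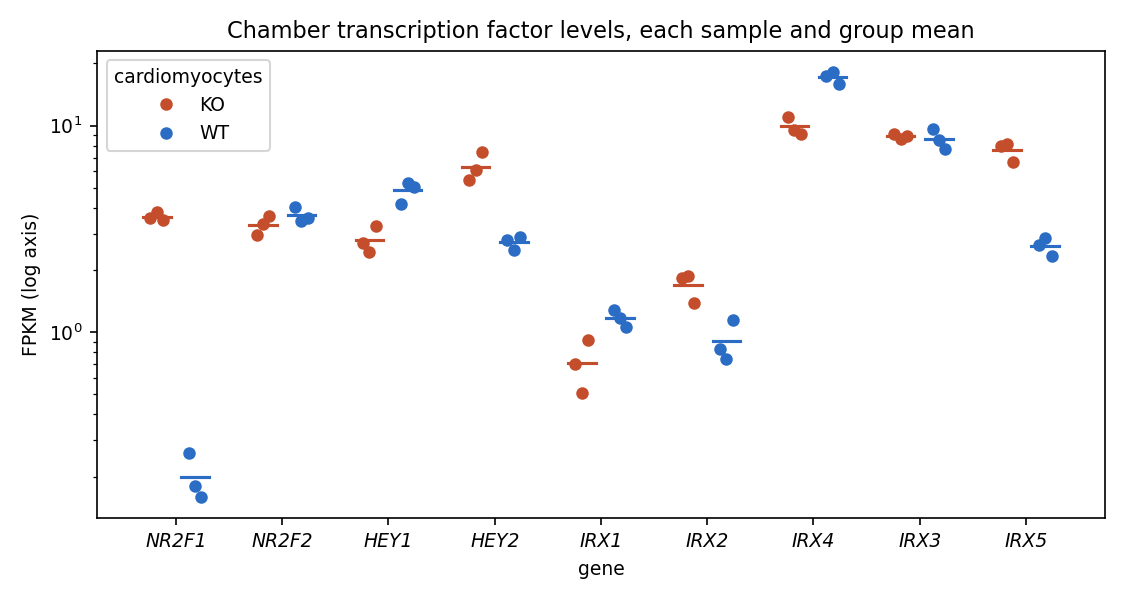
FPKM of the 9 chamber transcription factors in each sample, on a log axis, with KO samples left of WT samples and a line at each group mean. NR2F1 stands at 3.49 to 3.83 FPKM in KO and 0.16 to 0.26 FPKM in WT, while the KO and WT points of NR2F2 and IRX3 overlap.

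**Figure D2:**
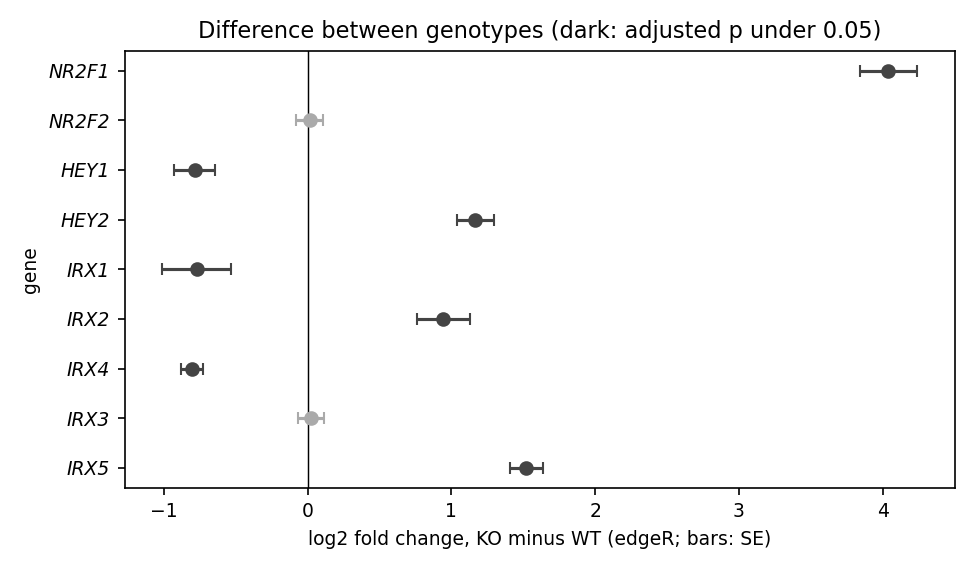
Log2 fold change of each factor, KO minus WT, from edgeR, with bars for the SE and dark points where the adjusted p was under 0.05. NR2F1 is at 4.04, IRX5, HEY2 and IRX2 between 0.95 and 1.52, and IRX4, HEY1 and IRX1 between -0.77 and -0.81.

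The atrial nuclear receptors parted from each other. NR2F1 (Entrez 7025; GRCh38, chromosome 5, 93583222 to 93594611) stood at 3.55, 3.83 and 3.49 FPKM in the KO samples, against 0.26, 0.18 and 0.16 FPKM in the WT samples. These rest on 227, 228 and 234 estimated counts in KO and 18.6, 12 and 9.76 in WT. It was low in all 3 WT samples and higher in every KO sample, with no overlap. It averaged 10.7 ± 0.261 CPM in KO and 0.635 ± 0.218 CPM in WT. The edgeR difference of 4.04 on the log2 scale (SE 0.199, adjusted p = 4.24e-09) lay above 99.8% of the genes tested. On log2(FPKM + 1) the log2 fold change was 1.95 because the pseudocount is large beside the WT level, and the call held (limma adjusted p = 5.86e-07).

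NR2F2 (Entrez 7026; chromosome 15, 96326046 to 96340263), the closest relative of NR2F1, stood at 2.95, 3.35 and 3.63 FPKM in KO samples, against 4.02, 3.44 and 3.57 FPKM in WT samples. The groups overlapped. It averaged 19.7 ± 2.08 CPM in KO and 19.5 ± 1.76 CPM in WT, a difference of 0.016 on the log2 scale (SE 0.0945) that did not pass (adjusted p = 0.898). The length that count, depth and FPKM imply for NR2F2 was 6006 ± 175 bases in KO and 5264 ± 36.5 bases in WT, with no overlap, so the FPKM difference pointed the other way (-0.12, limma adjusted p = 0.276). For the other 8 factors the mean implied lengths of KO and WT differed by less, with ratios from 0.958 for NR2F1 to 1.055 for IRX2. Per length, NR2F2 was 0.915 ± 0.110 times the NR2F1 level in KO samples and 19.0 ± 3.43 times in WT samples. The summed FPKM of the pair was 6.5, 7.18 and 7.12 in KO samples and 4.28, 3.62 and 3.73 in WT samples. Every KO sum was above every WT sum, and within the pair only NR2F1 was higher.

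The antisense genes beside both receptors also rose. NR2F1-AS1, a noncoding gene that overlaps the start of NR2F1 on the opposite strand, had 184, 192 and 179 estimated counts in KO samples, against 80.9, 43.5 and 56.2 in WT samples (log2 fold change 1.60, SE 0.193, edgeR adjusted p = 1.85e-05). Its implied length was 3998 ± 966 bases in KO and 9582 ± 865 bases in WT, so on FPKM it averaged 2.24 in KO and 0.290 in WT, a wider gap than in counts. NR2F2-AS1 had 30.9, 27.8 and 33.1 estimated counts in KO samples, against 10.2, 11.1 and 18.6 in WT samples (1.18, SE 0.350, edgeR adjusted p = 0.0122), a call that ended under DESeq2 (adjusted p = 0.0538), without WT replicate 1 (edgeR adjusted p = 0.0544) and on log2(FPKM + 0.1) (limma adjusted p = 0.284). Its FPKM values overlapped, at 0.44, 0.21 and 0.41 in KO samples and 0.07, 0.07 and 0.47 in WT samples. No source used here says that strand was kept, so reads where NR2F1 or NR2F2 overlaps its antisense gene cannot be told apart.

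The Notch-responsive repressors moved in opposite directions. HEY2 (Entrez 23493; chromosome 6, 125749632 to 125761269) stood at 5.45, 6.07 and 7.46 FPKM in KO samples, against 2.80, 2.50 and 2.90 FPKM in WT samples. Every KO sample was above every WT sample. The log2 fold change was 1.17 (SE 0.130, edgeR adjusted p = 1.01e-05), on 17.0 ± 2.86 CPM in KO and 7.57 ± 0.788 CPM in WT. HEY1 (Entrez 23462; chromosome 8, 79764010 to 79767767) stood at 2.69, 2.45 and 3.27 FPKM in KO samples, against 4.18, 5.30 and 5.07 FPKM in WT samples. Every KO sample was below every WT sample, with a log2 fold change of -0.79 (SE 0.145, edgeR adjusted p = 5.52e-04). The order of the pair turned over, with HEY2 at 2.26 ± 0.226 times the HEY1 level per length in KO samples and 0.571 ± 0.0991 times in WT samples. The ratio ranged from 2.03 to 2.48 in KO and from 0.472 to 0.670 in WT (two-sided exact permutation p = 0.1, the smallest that 3 against 3 allows).

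The Iroquois genes kept a similar sum but a different make-up. Together the 5 IRX genes gave 30.6, 28.7 and 27.1 FPKM in KO samples, against 31.8, 31.5 and 28.1 FPKM in WT samples, and the groups overlapped (exact permutation p = 0.3). IRX4 held 34.4 ± 1.39% of that sum in KO samples and 56.3 ± 1.53% in WT samples. IRX5 held 26.4 ± 1.93% in KO samples and 8.56 ± 0.436% in WT samples. The share of IRX3 was 30.9 ± 1.87% in KO samples and 28.3 ± 1.80% in WT samples, within the spread between samples.

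**Figure D3:**
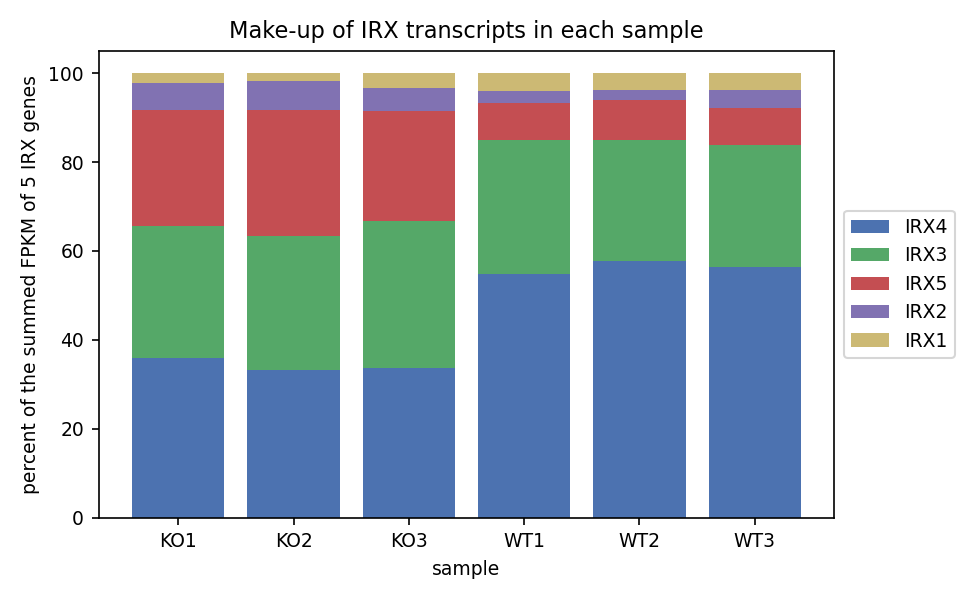
Share of each IRX gene, in percent, in the summed FPKM of IRX1 to IRX5 in each sample, with the 3 KO samples left of the 3 WT samples. The IRX5 share is 24.7 to 28.5% in KO and 8.30 to 9.06% in WT, and the IRX4 share 33.3 to 35.9% in KO and 54.7 to 57.8% in WT.

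IRX4, IRX2 and IRX1 lie in the cluster on chromosome 5. IRX4 (Entrez 50805; chromosome 5, 1877413 to 1887179) stood at 11, 9.57 and 9.14 FPKM in KO samples, against 17.4, 18.2 and 15.9 FPKM in WT samples. The KO samples were all below all WT samples, with 28.8 ± 2.36 CPM in KO and 50.4 ± 3.95 CPM in WT (log2 fold change -0.81, SE 0.0763, edgeR adjusted p = 1.95e-06). This was a smaller fall than the cardiomyocyte marker median of -1.68. IRX4 relative to TNNT2, the cardiac troponin T gene, was 0.0243 ± 0.00136 per length in KO samples and 0.0137 ± 0.000854 in WT samples. Such a ratio depends on the marker chosen. NKX2-5, a transcription factor gene among the same 14 markers, fell by less than IRX4 (-0.39), and the other markers fell by more. IRX2 (Entrez 153572; chromosome 5, 2735635 to 2751677) stood at 1.82, 1.86 and 1.39 FPKM in KO samples, against 0.83, 0.74 and 1.15 FPKM in WT samples, higher in every KO sample (0.95, SE 0.187, edgeR adjusted p = 9.04e-04). IRX1 (Entrez 79192; chromosome 5, 3595832 to 3601403) was the lowest of the factors in KO, at 0.70, 0.51 and 0.92 FPKM, against 1.28, 1.17 and 1.06 FPKM in WT samples. It fell by 0.77 on the log2 scale (SE 0.240, edgeR adjusted p = 0.0155). With 26.5 to 42.7 estimated counts in KO samples and 52.0 to 67.0 in WT samples, its call ended under DESeq2 (adjusted p = 0.0581), without KO replicate 2 (edgeR adjusted p = 0.0539) and without WT replicate 1 (0.0623). Neighbours in this cluster therefore differed in direction, IRX2 being higher and IRX4 and IRX1 lower.

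IRX3 and IRX5 lie in the cluster on chromosome 16. IRX5 (Entrez 10265; chromosome 16, 54930865 to 54934485) stood at 8, 8.17 and 6.67 FPKM in KO samples, against 2.64, 2.85 and 2.33 FPKM in WT samples. The gap between the groups was wider than either group's own range, with 16.6 ± 1.66 CPM in KO and 5.76 ± 0.526 CPM in WT (log2 fold change 1.52, SE 0.114, edgeR adjusted p = 2.32e-07). IRX3 (Entrez 79191; chromosome 16, 54283304 to 54286787) stood at 9.09, 8.59 and 8.94 FPKM in KO samples, against 9.64, 8.53 and 7.68 FPKM in WT samples, with overlap and a log2 difference of 0.022 (SE 0.0899, edgeR adjusted p = 0.849). IRX3 was 1.18 ± 0.149 times the IRX5 level per length in KO samples and 3.31 ± 0.330 times in WT samples. IRX6, the third gene of that cluster and no member here, had 16.1, 12.1 and 14.2 estimated counts in KO samples, against 3.01, 2.01 and 0 in WT samples, and passed (edgeR adjusted p = 0.00201) at levels too low for a fold. CRNDE, a noncoding gene, lies 1979 bases from IRX5 on the side of lower coordinates. It averaged 8.41 CPM in KO and 6.65 CPM in WT (0.34, edgeR adjusted p = 0.0346). Its call ended under 9 of 16 alternatives, among them DESeq2 (adjusted p = 0.160) and 5 of 6 fits that each left out 1 sample. FTO, whose introns hold enhancers of IRX3 and IRX5 in several tissues, fell by 0.19 (SE 0.0551, edgeR adjusted p = 0.00930).

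By level per length, the order in KO samples was IRX4 (9.90 ± 0.974 FPKM), IRX3, IRX5, HEY2, NR2F1, NR2F2, HEY1, IRX2 and IRX1 (0.710 ± 0.205 FPKM). Within it, IRX5 overlapped HEY2, NR2F1 overlapped NR2F2 and NR2F2 overlapped HEY1. In WT samples the order was IRX4 (17.1 ± 1.17 FPKM), IRX3, HEY1, NR2F2, HEY2, IRX5, IRX1, IRX2 and NR2F1 (0.200 ± 0.0529 FPKM), where HEY2 overlapped IRX5 and IRX1 overlapped IRX2. IRX4 and IRX3 thus led in both groups, and NR2F1 was the lowest of the 9 in WT, whereas in KO its mean lay above those of NR2F2, HEY1, IRX2 and IRX1. IRX4 was 2.74 ± 0.317 times the NR2F1 level in KO samples and 89.0 ± 19.2 times in WT samples.

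Of the other relatives outside the group, NR2F6 and HEYL differed by less than any called factor. NR2F6, a nuclear receptor of the same family, averaged 64.2 ± 4.34 CPM in KO and 58.2 ± 1.87 CPM in WT and did not pass (0.14, edgeR adjusted p = 0.0580). It passed under 6 of 16 alternatives, with adjusted p from 0.0245 to 0.211 over all of them. HEYL, the third HEY-type repressor, averaged 8.02 ± 0.763 CPM in KO and 6.25 ± 0.844 CPM in WT, with overlapping groups. Its call (0.36, edgeR adjusted p = 0.0396) ended under 8 of 16 alternatives, where the adjusted p reached 0.156 under DESeq2.

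Genes of the Notch pathway, which acts upstream of the HEY genes, moved in both directions. Among the 19 tested, 10 were called higher and 3 lower, with a median of 0.30, against 28.4% and 28.6% of all genes. JAG1, a Notch ligand gene, averaged 164 ± 21.6 CPM in KO and 65.7 ± 2.06 CPM in WT (1.32, SE 0.0889), and HES1, a direct Notch target gene, averaged 47.0 ± 3.20 CPM in KO and 32.1 ± 1.44 CPM in WT (0.55, SE 0.0661). RBPJ fell by 0.27 (SE 0.0506) and the coactivator gene MAML2 by 0.25 (SE 0.0673). With no filter on low counts 9 of 20 were called higher and 5 lower, and on FPKM 6 of 14 higher and 2 lower. Beside this list, 6 of 8 endothelial markers were called higher and 1 lower, and 7 of 11 fibroblast markers higher and 3 lower. Of 8 endoderm markers 7 were called higher and 0 lower. A link of any of these to the Notch list was not tested.

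Genes of the supply of and response to retinoic acid, a known inducer of the NR2F genes, moved in both directions. Of 16 tested, 6 rose and 5 fell, with a median of -0.13. The same test called 28.4% of all genes higher and 28.6% lower, so these counts alone are not a result about the pathway. RARG, a retinoic acid receptor gene, averaged 31.2 ± 1.20 CPM in KO and 8.74 ± 0.366 CPM in WT (1.83, SE 0.0765), and CYP26B1, which encodes an enzyme that breaks retinoic acid down, rose by 0.51 (SE 0.0829). STRA6, a retinol uptake gene, averaged 55.2 ± 2.55 CPM in KO and 107 ± 2.30 CPM in WT (-0.95, SE 0.0515), and CRABP2, a retinoic acid binding protein gene, fell by 0.78 (SE 0.0532).

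Genes of the atrial programme divided between rises and falls, and most of the ventricular programme fell. Of 13 atrial effectors tested 5 rose and 6 fell (median -0.033), against 28.4% of all genes called higher and 28.6% lower. KCNK3, a background potassium channel gene, averaged 52.8 ± 5.21 CPM in KO and 13 ± 0.720 CPM in WT (2.02), and SLN, which encodes the atrial calcium pump inhibitor sarcolipin, averaged 32.7 ± 3.39 CPM in KO and 15.1 ± 1.01 CPM in WT (1.12). MYH6 (-2.14) and MYL7 (-1.67), an alpha myosin heavy chain and an atrial light chain gene, fell. Singled out after their values were seen because NR2F proteins act on them, KCNA5 rose by 0.51 (SE 0.109, edgeR adjusted p = 0.00157), at 9.77, 11.1 and 10.9 CPM in KO samples and 7.73, 7.51 and 7.02 CPM in WT samples. KCNJ3, chosen the same way, averaged 10.6 CPM in KO and 8.61 CPM in WT (0.30, edgeR adjusted p = 0.0208), and its call ended under 8 of 16 alternatives, which were DESeq2 (adjusted p = 0.134), both FPKM scales and 5 of 6 fits that each left out 1 sample. Potassium channel genes of this list did not all rise. KCNJ5 averaged 25.45 CPM in KO and 65.88 CPM in WT (-1.37, edgeR adjusted p = 2.11e-09).

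Of 12 ventricular effectors 8 fell and 2 rose (median -1.08), against 28.6% of all genes called lower and 28.4% higher. MYH7, the beta myosin heavy chain gene (-2.64), and MYL3, a ventricular light chain gene (-2.06), fell, while GJA1, which encodes connexin 43 (0.89), and FHL2 (0.27) rose. MYL2, the ventricular light chain gene, singled out after its values were seen, stood at 40.0, 33.7 and 35.5 CPM in KO samples, against 116 to 120 CPM in WT samples. In the mouse, genes that IRX3 and IRX5 act on include GJA1, GJA5 and KCND2. Besides GJA1, GJA5 averaged 0.995 ± 0.237 CPM in KO and 0.283 ± 0.0946 CPM in WT (1.79, edgeR adjusted p = 0.00342), and KCND2 did not pass (-0.23, edgeR adjusted p = 0.115). GJA5 is also in the lists of atrial effectors and arterial endothelial markers. Its level was too low for it to be tested under the filter on mean CPM of at least 1. All 14 cardiomyocyte markers fell beside the atrial and ventricular effectors, and these lists share MYH6, MYH7, PLN and TNNI3 with the markers.

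**Figure D4:**
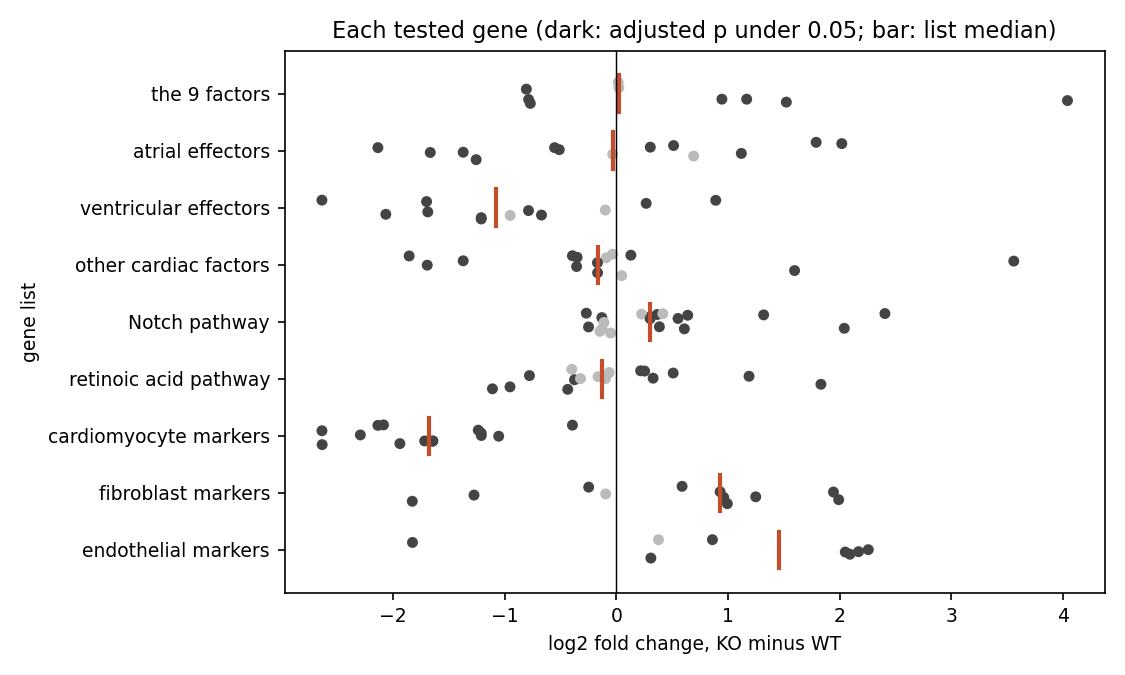
Log2 fold change, KO minus WT, of each tested gene in the lists described, with dark points at an adjusted p under 0.05 and a bar at each list median. The 9 factors spread from -0.81 to 4.04 around a median of 0.022, between the cardiomyocyte markers (median -1.68) and the fibroblast and endothelial markers (medians 0.93 and 1.46).

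Among 14 other cardiac transcription factor genes 3 rose, 8 fell and 3 did not pass (median -0.17). Of all genes, 28.4% were called higher and 28.6% lower. SHOX2, a regulator of sinoatrial pacemaker cells, averaged 8.79 ± 1.0 CPM in KO and 0.741 ± 0.216 CPM in WT (3.56, SE 0.209), and TBX18, a gene of the sinus horn and epicardium, averaged 28.1 ± 1.94 CPM in KO and 9.28 ± 0.824 CPM in WT (1.60). TBX20 averaged 148 ± 7.04 CPM in KO and 478 ± 11.6 CPM in WT (-1.69), and HAND1, a left ventricular factor, averaged 52.6 ± 3.24 CPM in KO and 136 ± 9.05 CPM in WT (-1.37).

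Other cell types that use these factors were examined too. Their counts stand beside 28.4% of all genes called higher and 28.6% lower. Of 8 arterial endothelial markers 4 rose and 2 fell, and of 6 venous and lymphatic markers tested 4 rose and 2 fell. Their summed levels were lower in KO. The arterial list summed to 611 to 690 CPM in KO and 856 to 867 CPM in WT. The venous and lymphatic list summed to 328 to 338 CPM in KO and 463 to 477 CPM in WT. These sums follow their abundant genes and do not measure how much endothelium was present. The fallers were NRP1 (211 CPM in KO, 399 CPM in WT) and EFNB2 (142 and 247) in the arterial list. In the other list they were NRP2 (126 and 328) and PROX1 (20.4 and 71.0). The other called markers of both lists rose. Of 8 endoderm markers 7 rose, with sums of 320 to 509 CPM in KO and 181 to 260 CPM in WT. The KO sums were 344, 320 and 509 CPM in replicates 1, 2 and 3. Most of each group's sum was AFP (161 CPM in KO, 81.3 CPM in WT) and ALB (174.5 and 126), and ALB did not pass (edgeR adjusted p = 0.279). SOX17, a riser here, is also in the arterial list. Of 8 smooth muscle and pericyte markers 2 rose and 6 fell. Of 7 epicardial markers 4 rose and 2 fell. The count of rises dropped to 1 under DESeq2 and on FPKM, and to 1 or 2 without KO replicate 2, KO replicate 3, WT replicate 2 or WT replicate 3. Of 5 neural markers tested 1 rose and 3 fell, and of 4 pluripotency markers tested 2 fell.

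The genes whose profile over the 6 samples was nearest to that of NR2F1, by the root mean square difference of log2 CPM taken from the WT mean, among 16286 genes, were FABP4 (0.202), SP7 (0.252) and EPYC (0.286). FABP4 averaged 9.10 ± 0.395 CPM in KO and 0.504 ± 0.0551 CPM in WT. Nearest to IRX4 were ZNF577 (0.0212), ACSF2 (0.0436) and FXYD1 (0.0462).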

How the data were processed

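RNA was measured in 3 KO and 3 WT samples, grouped by their titles. The authors deposited, per the file headers, a read count and an expression value for each gene. The deposited counts were treated as estimated counts, since 10.9 to 12.0% of values above 0 were whole, and were rounded to whole numbers. As for unit, the deposited expression values were taken to be FPKM, because count, depth and value gave a length that varied by under 2% for 40.8% of 11959 well-covered genes. The submitters' processing notes list hg38. What aligned and counted the reads is not given in the sources used here. Symbols and coordinates are RefSeq's by Entrez ID, which matched 23433 of 28092 rows. The other rows took 13.2 to 15.2% of counts and stayed in the fit.

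After TMM scaling and filterByExpr (counts of at least 10, total of at least 15), genes were tested for genotype with edgeR 4.0.16 in R 4.3.3 (robust quasi-likelihood, Benjamini-Hochberg over 19558 genes, threshold 0.05). Log2 fold changes are KO minus WT, and SEs were derived from the F statistic. The common biological coefficient of variation was 0.0791. The test was tested on simulated counts of 19558 genes, where it recovered 90.5% of 200 changed genes. The changed genes were drawn from those above a minimum mean count, and all genes shared a common dispersion. In the real data 57% of genes were called, so recovery in that setting, or for genes with few counts, was not tested. Counts of replicates were further apart than sampling alone gives (chi-square over its degrees of freedom 3.37 to 6.81), so no pair was treated as 1 library deposited more than once. Ratios and sums were compared by exact permutation over samples.

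Members and lists were chosen with earlier results of these data known. Named genes were every member, up to 2 risers and 2 fallers of smallest p per list, every gene of lists of 4 or fewer (1 of which is not reported here), and the 3 nearest profiles to the largest riser and largest faller with a mean of at least 1 CPM. This rule did not cover the marker lists. TNNT2, EMCN, PLN, TNNI3, CRNDE, KCNA5, KCNJ3 and MYL2 fall outside it and were chosen after their values were seen. So were NKX2-5, KDR, KCNJ5, NRP1, EFNB2, NRP2, PROX1, SOX17, AFP and ALB. ADPRHL1 was named as the gene knocked out. Alternatives were DESeq2 1.42.0, voom (limma 3.58.1), scaling by RLE, by upper quartile or by total counts, no filter, a filter on mean CPM of at least 1, the replicate number as a block, each sample left out, and limma on log2(FPKM + 1), for FPKM of at least 1 in 3 samples, and on log2(FPKM + 0.1). Protein sequences were not used here. Lists held genes that were not in the table or too low to test, which were not analysed here.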

Additional observations from a re-analysis of the deposited data

How the results depend on the processing

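The calls of NR2F1, IRX5, HEY2, IRX2, IRX4 and HEY1 kept their direction and passed under all 16 alternatives, with log2 fold changes of 1.95 to 4.34 for NR2F1, 1.25 to 1.60 for IRX5, 0.96 to 1.25 for HEY2, 0.50 to 1.11 for IRX2, -0.88 to -0.74 for IRX4 and -0.94 to -0.62 for HEY1. IRX1 passed under 13 of the 16. The differences of NR2F2 and IRX3, which passed nowhere, changed sign. NR2F2 stood at -0.013 with no filter on low counts, -0.12 on log2(FPKM + 1) and -0.15 on log2(FPKM + 0.1), and between -0.050 and 0.093 when 1 sample was left out. IRX3 stood at -0.0065 with no filter, and between -0.061 and 0.10 when 1 sample was left out. With no filter the median of all genes also shifted, by -0.029. What lay behind the sign changes, beyond the implied length of NR2F2 given above for FPKM, was not tested. Samples with the same replicate number did not deviate together (correlations -0.024, 0.231 and -0.309), so the numbers were not taken to pair them. Between samples with different numbers the correlations ran from -0.439 (KO 2 with WT 1) to 0.409 (KO 3 with WT 1). The source of these correlations was not tested. With the replicate block, 5290 genes were higher and 5412 lower, and 4 members were higher and 3 lower, as without it. The block ended the call of CRNDE (edgeR adjusted p = 0.0542) and left 1 epicardial marker called higher, against 4 without it. With fewer samples, leaving out 1 gave 4978 to 5240 genes higher. Of 920 refits of single named genes, 867 kept their direction and side of the threshold, 33 lost a call, 10 gained one and 10 changed sign. No alternative shifted the median of all genes by more than 0.034 on the log2 scale. Depth limits IRX1, IRX6, GJA5 and the WT level of NR2F1, which rest on few counts.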
